A study of Mus musculus with 9 samples.

Results

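The mitochondrial carriers of the Slc25 family were examined in liver macrophages from mice on normal chow (NC), from mice on a high-fat diet (HFD) and from HFD-fed mice given diphenyleneiodonium (DPI), a compound the study used as an agonist of the receptor GPR3. The family was taken by symbol as every gene named Slc25a followed by a number, which gave 47 of the 23413 genes counted. All mice were C57BL/6 males that entered their diet at 5 weeks of age and stayed on it for 8 weeks. Vehicle (PEG3000) or DPI at 2 mg/kg was injected intraperitoneally every 5 days from week 3. This schedule comes from the study's methods and design text, whereas the sample labels describe purified cells exposed to DMSO or 500 nM DPI for 24 h. Macrophages were sorted as F4/80+CD11b+Gr1low cells, and polyadenylated RNA was sequenced from 2 NC mice, 3 HFD mice given vehicle and 4 HFD mice given DPI, with 1 library for each mouse by the labels. The study describes more mice in each group than there are libraries, and whether cells of several mice were pooled for a library is not given in the sources used here. The study asked how the diet alters these cells and what DPI does on top of it, so the comparisons were HFD with vehicle against NC and DPI against vehicle. DPI against NC is given beside them and shares its libraries with both.

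Slc25 carriers are small proteins of the inner mitochondrial membrane that are encoded in the nucleus, made in the cytosol and imported. Each exchanges or takes up particular solutes, among them ADP and ATP, phosphate, citrate, amino acids, acylcarnitines, vitamins made into cofactors, nucleotides and iron, so the set of carriers a cell makes sets which solutes can pass between the matrix and the cytosol. In macrophages the citrate carrier is known for moving citrate into the cytosol, where it feeds lipid synthesis and inflammatory mediators, and the ADP/ATP carriers deliver mitochondrial ATP to the cell.

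Library totals ran from 3534325 to 15585775 counts, of which 27% to 44.5% fell on the ribosomal RNA precursor Rn45s, and the members together received 5410 to 33129 counts a library. Levels are given as CPM, counts per 1000000 of a library total scaled by the TMM method, and 3 counts, the floor used here, equal 0.184 to 1.02 CPM depending on the library. The floor covers counting error only. The labelled cell type was checked against its markers. Macrophage genes were abundant in every library (Lyz2 at 14000 to 42900 CPM, Csf1r at 385 to 751 CPM), as were monocyte genes (Plac8 at 1330 to 2240 CPM). Of 8 Kupffer cell markers, C1qa, C1qb and C1qc were present throughout, but Clec4f was at 0 in 3 libraries and at most 45.6 CPM, Marco had 1 count in all libraries together, and Timd4 and Vsig4 were too low to be tested. The cells are therefore called liver macrophages here. The rank correlation over all genes was 0.74 for the NC pair, 0.867 to 0.88 among the vehicle libraries and 0.838 to 0.887 among those from DPI-treated mice.

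Of the 47 members, 4 had no count in any library: Slc25a31, the ADP/ATP carrier of the germ line, and Slc25a41, Slc25a48 and Slc25a54. A further 6 had too few counts to be tested (Slc25a2, Slc25a18, Slc25a21, Slc25a23, Slc25a34 and Slc25a53), none of them above 2.6 CPM in any library. The other 37 passed the filter on low counts and were tested, and 23 members had more than 3 counts in every library. All 47 were located in the GENCODE M21 annotation of GRCm38. In 11 of them an exon overlaps an exon of another gene, 10 on the opposite strand and 1 (Slc25a51) on the same strand, and since the strand setting of the counting is not given in the sources used here, reads of such pairs cannot be told apart. Among the genes named in the text below this holds for Slc25a10, Slc25a25, Slc25a26, Slc25a33, Slc25a37, Slc25a46 and Slc25a51. Slc25a5 has a processed pseudogene, so its reads may be split as well.

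Of the 4 members that passed the study's threshold in the diet comparison, 2 have a start site in the RefSeq promoter set of GRCm38.p6, in which 36 of the 47 members were found. Their 250 bases before the start site are shown because these genes passed the threshold in the same direction and each window holds 1 canonical E-box, the motif bound by Myc and related factors. Both lie on the minus strand, and the capitals mark the E-box, whose first base is 239 bases before the start site in Slc25a1 (chr16:17928220-17928469) and 8 bases before it in Slc25a33 (chr4:149774268-149774517).
Slc25a1: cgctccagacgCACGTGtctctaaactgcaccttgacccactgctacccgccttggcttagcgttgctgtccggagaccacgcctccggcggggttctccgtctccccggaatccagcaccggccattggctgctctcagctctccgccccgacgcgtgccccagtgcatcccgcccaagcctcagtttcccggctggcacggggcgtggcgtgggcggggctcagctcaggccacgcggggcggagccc
Slc25a33: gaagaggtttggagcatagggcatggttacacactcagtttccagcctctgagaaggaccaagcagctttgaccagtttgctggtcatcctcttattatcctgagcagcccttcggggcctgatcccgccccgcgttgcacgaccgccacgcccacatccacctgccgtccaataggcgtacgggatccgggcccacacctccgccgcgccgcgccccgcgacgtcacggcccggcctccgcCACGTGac

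The letters CACGTG, which read the same on both strands, occurred in 8 of the members' 46 promoter windows of 300 bases (17.4%) and in 7.15% of all 32851 windows. Beside Slc25a1 and Slc25a33 they were found in Slc25a13, Slc25a14, Slc25a15, Slc25a31 and Slc25a36. Slc25a31 was at 0 and not tested, and the others did not pass the threshold in any comparison with all libraries. The letters CCGGAAG, an ETS factor motif searched on both strands, occurred in 7 of the members' windows (15.2%), in neither of the sequences shown, and in 8.86% of all. A match describes the letters and is not evidence of binding.

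Per kilobase of the longest coding transcript, the family spanned several orders of magnitude in these cells. Slc25a5, which encodes the ADP/ATP carrier ANT2 of proliferating and many other cells, stood first at a mean of 596 CPM per kb (454 to 779 over the 9 libraries). Slc25a3, the phosphate carrier that also brings copper to the matrix, followed at 242 CPM per kb (182 to 309), and their ranges did not overlap. Slc25a4, the ADP/ATP carrier ANT1 known from heart and muscle, was the third of the members at 39.3 CPM per kb (24.2 to 56.6). It overlapped in range with Slc25a39, needed for glutathione import, at 33.8 CPM per kb (18.9 to 48.5), and with Slc25a11, the oxoglutarate and malate carrier, at 29.3 CPM per kb (18 to 43.5). Below these came a group without clear order that held Slc25a17, the peroxisomal carrier of cofactors, at 15.4 CPM per kb, Slc25a20, the acylcarnitine carrier, at 15 CPM per kb, Slc25a51, which brings NAD to the matrix, at 14.4 CPM per kb and Slc25a1, the citrate carrier, at 12.6 CPM per kb. Among relatives that do not carry the symbol, Ucp2 reached 527 CPM per kb (233 to 923), a range that overlapped that of Slc25a5. Its mean was below that of Slc25a5 in NC (237 against 525 CPM per kb) and with DPI (485 against 665 CPM per kb) and above it with vehicle (776 against 552 CPM per kb).

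**Figure D1:**
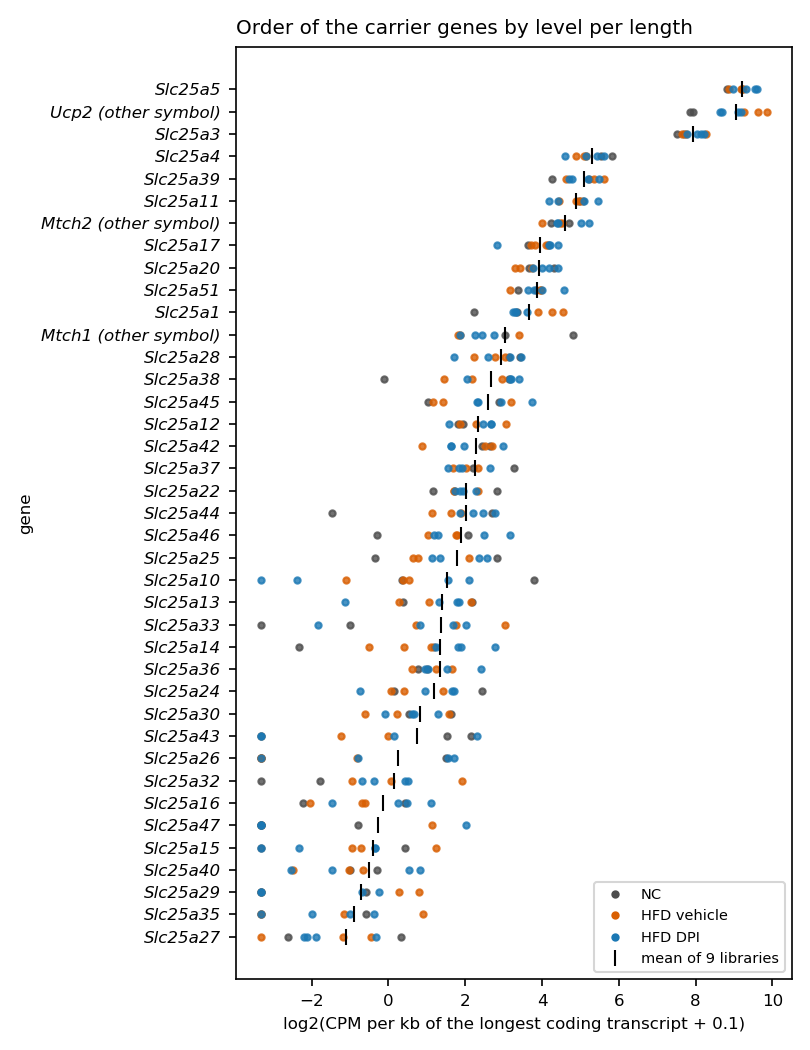
The carrier genes ordered by their level, with each point 1 library, coloured by group, on a log2 axis of CPM per kb of the longest coding transcript plus 0.1. The bar on each line marks the mean of the 9 libraries, and Slc25a5 (596 CPM per kb), Ucp2 (527) and Slc25a3 (242) stand above the remaining genes.

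Slc25a5, Slc25a3 and Slc25a4 together took 67.7% to 73.6% of the members' counts in every library. Slc25a5 alone held 39.5% to 47.9%, with overlapping ranges in the 3 groups. Slc25a3 held 20.6% and 20.8% on NC, 21.8% to 27.5% under vehicle and 21% to 26% under DPI, so that both NC libraries lay below all 7 HFD libraries. The share of Slc25a4 was 7.61% and 5.51% on NC. On HFD it was 4.58%, 3.76% and 3.57% under vehicle and 4.08%, 3.72%, 4.68% and 3.14% under DPI. Both NC libraries thus lay above all 7 HFD libraries in this share. These patterns in the shares were picked out after the values were seen and were not tested. The ratio of Slc25a5 to Slc25a4 counts, not corrected for length, was 5.18 and 8.36 on NC and, on HFD, 8.85 to 12.7 under vehicle and 10.2 to 13.3 under DPI. The summed level of all members was 1514 ± 125 CPM in NC (SD, n = 2), 1616 ± 188 CPM with vehicle (SD, n = 3) and 1843 ± 254 CPM with DPI (SD, n = 4), and the libraries of the 3 groups overlapped.

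**Figure D2:**
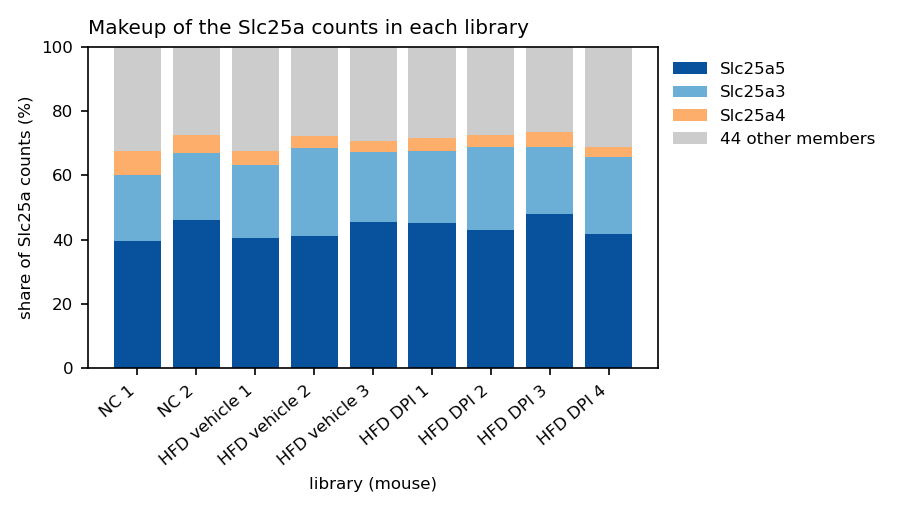
Share of the members' counts, in percent, taken by Slc25a5, Slc25a3, Slc25a4 and the 44 other members in each of the 9 libraries. The first 3 genes make up 67.7% to 73.6% of each bar, and the Slc25a4 segment is thickest in the NC libraries (7.61% and 5.51%).

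HFD feeding was accompanied by higher levels of 4 carrier genes, among them Slc25a1, Slc25a32 and Slc25a33, and with all libraries no member passed the threshold downwards. The threshold was that of the study, an absolute log2 fold change no smaller than 1 together with an unadjusted p below 0.05. These 4 are 10.8% of the 37 members tested, against 11.7% of all 11393 genes tested, of which 7.03% were higher and 4.63% lower, so the members' share was near the background. After adjustment over all genes by the Benjamini-Hochberg method no member had an adjusted p under 0.05 in edgeR's quasi-likelihood test, while 0.0614% of all genes did. DESeq2 put 2 members, Slc25a32 among them, under an adjusted p of 0.05, and 2.74% of all genes. The count of 4 rested partly on single libraries, as it was 2 (Slc25a1 among them) without vehicle 2, when 10.9% of all genes were called. It was 7 without NC 2, when 21.4% of all genes were called, with Slc25a32, Slc25a33, Slc25a14, Slc25a38 and Slc25a46 among those higher and Slc25a37 lower. Scaling by library totals alone turned the balance of all calls from 801 higher and 528 lower to 539 higher and 933 lower, and 3 members, Slc25a1 not among them, were then called. The members' median log2 fold change was -0.03, and that of all genes was 0.03. By role, 3 of the 9 carriers of nucleotides and cofactors and 1 of the 3 tested carriers of di- and tricarboxylates rose, and 0 in each of the other roles.

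Slc25a32, which is known for bringing folate and flavin adenine dinucleotide into the matrix (chromosome 15, 39091231 to 39112716), was at 0 and 1.12 CPM in NC (0 and 6 counts). The vehicle libraries held 5.55, 21.6 and 2.48 CPM and the DPI libraries 7.42, 3.06, 7.79 and 3.98 CPM. The groups of NC and vehicle did not overlap, but vehicle 2 was far above the other vehicle libraries. The log2 fold change was 4.10 (SE 1.43; adjusted p = 0.284 by edgeR), and without vehicle 2 it was 2.81 and no longer past the threshold. It was 3.14 without NC 1 and 9.08 without NC 2, a fitted value against a single NC library at 0.

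Slc25a33, a carrier of pyrimidine nucleotides (chromosome 4, 149744036 to 149774277), was at 0 and 0.747 CPM in NC (0 and 4 counts). Its levels were 2.89, 15.4 and 6.19 CPM with vehicle and 3.13, 0.34, 7.42 and 5.82 CPM with DPI. Vehicle 2 was again the highest library, and DPI 2, with 1 count, lay among the NC values. The log2 fold change in HFD against NC was 4.39 (SE 1.64; adjusted p = 0.304 by edgeR), and it was not past the threshold without NC 1 (3.44) or without vehicle 2 (3.54). Without NC 2, which leaves an NC library at 0, the fitted value was 8.80. Slc25a36, the other pyrimidine nucleotide carrier, had a log2 fold change of 0.35 and did not pass.

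Slc25a1 exports citrate from the matrix in exchange for malate (chromosome 16, 17925223 to 17928219). It measured 16.8 and 7.66 CPM in NC, 24.6, 31.7 and 38.9 CPM with vehicle and 16.5, 16.3, 15.6 and 20.3 CPM with DPI. All vehicle libraries lay above both NC libraries and above all DPI libraries. The rise in HFD against NC was 2.60-fold (log2 1.38, SE 0.51; adjusted p = 0.311 by edgeR), and it was not past the threshold without NC 2 (log2 0.95), without vehicle 3 (log2 1.26) or when scaled by library totals alone (log2 1.05). Without NC 1 it was 2.06.

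**Figure D3:**
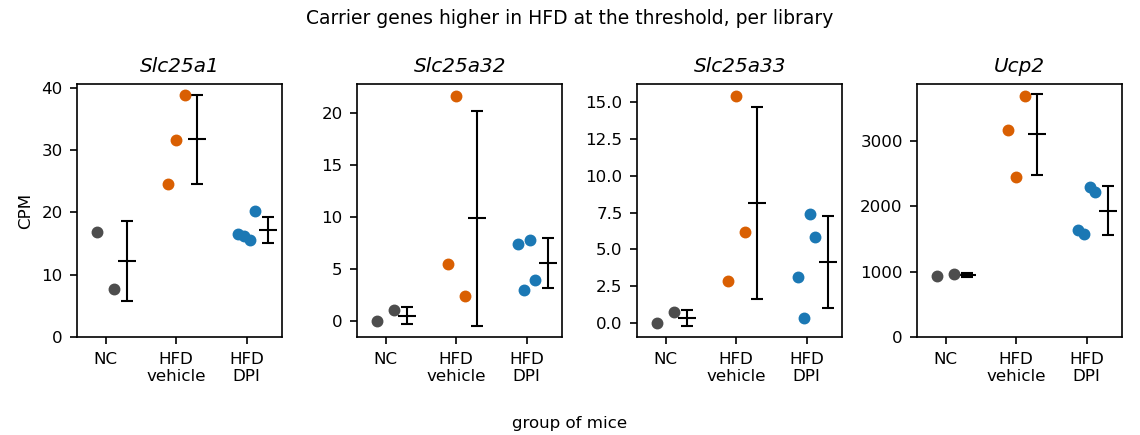
CPM of 3 of the 4 carrier genes that passed the threshold in HFD against NC, and of the relative Ucp2, with 1 point for each library and bars for the mean and SD of NC, vehicle-treated HFD and DPI-treated HFD mice. Slc25a32 lies at 0 to 1.12 CPM in NC and 2.48 to 21.6 CPM in the HFD libraries, and the DPI libraries of Slc25a1 (15.6 to 20.3 CPM) and Ucp2 (1580 to 2300 CPM) lie below those of vehicle (24.6 to 38.9 CPM and 2440 to 3680 CPM).

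Other cells differed between these groups too. The summed level of 5 sinusoidal endothelial markers was 116 and 169 CPM in NC and 6.44 to 9.99 CPM with vehicle. Of these markers Stab2, Clec4g and Kdr were past the threshold downwards, with Clec4g at 0 in 2 of the 3 vehicle libraries, Lyve1 did not pass it, and Pecam1 was past it upwards, at 0.911 and 1.12 CPM in NC and 8.66, 9.07 and 1.73 CPM with vehicle (log2 2.66). The sum of 8 hepatocyte markers was 116 and 235 CPM in NC and 18 to 64.6 CPM with vehicle. By contrast, 5 neutrophil markers summed to 972 and 3010 CPM in NC and 2330 to 3590 CPM with vehicle. Only Mmp8 of these neutrophil markers was past the threshold, and it was lower with vehicle (log2 -1.13), without overlap of the groups. S100a8, S100a9, Retnlg and Cxcr2 had positive log2 fold changes and did not pass it. The 4 B cell markers summed to 14.9 and 65.6 CPM in NC and 93.2 to 175 CPM with vehicle. Among the macrophage, Kupffer cell and monocyte markers Emr1, which encodes F4/80 of the sort, was past the threshold downwards (log2 -1.05), as were C1qa (log2 -1.37) and Ccr2 (log2 -1.23). Ly6c2 (log2 1.04) and the T cell gene Cd3e (log2 2.23) were past it upwards. The T and NK cell markers Cd3d, Cd3g, Nkg7, Klrb1c and Ncr1 did not pass it, and Ncr1 had a log2 fold change of -1.10. The 6 markers of this list summed to 47.9 and 184 CPM in NC and 122 to 261 CPM with vehicle, overlapping groups. The part of these cells in the carriers' differences was not tested, and in sorted bulk RNA fewer cells of a type and less RNA per cell cannot be told apart.

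The remaining carriers did not pass the threshold between HFD and NC. Of the ADP/ATP carriers, Slc25a5 measured 563 and 739 CPM in NC and 583, 746 and 725 CPM with vehicle, overlapping groups with a log2 fold change of 0.07 (SE 0.28). Slc25a4 measured 109 and 88.3 CPM in NC and 65.9, 68.2 and 57 CPM with vehicle. The groups of Slc25a4 did not overlap, at a log2 fold change of -0.63 (SE 0.35; adjusted p = 0.457 by edgeR). Slc25a3 was at 294 and 334 CPM in NC and 325, 498 and 348 CPM with vehicle, with a log2 fold change of 0.32 (SE 0.29). In all, 4 members were higher and 3 lower (Slc25a4, Slc25a28 and Slc25a43) without overlap of the groups, 10.8% and 8.11% of those tested, while 15% and 12.5% of all genes were.

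The dicarboxylate carrier Slc25a10, which exchanges malate and succinate for phosphate and is abundant in liver and fat, differed widely between the NC libraries, at 2.37 and 27.8 CPM. Its vehicle values were 2.44, 2.72 and 0.743 CPM and its DPI values 5.70, 8.49, 0.186 and 0 CPM. The log2 fold change in HFD against NC was -2.92 (SE 1.60; adjusted p = 0.452 by edgeR), and it was -0.22 without NC 2. It was past the threshold without NC 1 (-3.78), without DPI 4 (-2.92) and in a fit of NC and vehicle alone (-2.92). NC 2 was also the library with the highest hepatocyte sum (235 CPM), whose part in this value was not tested. Slc25a11 differed little, at 53.4 and 57.1 CPM in NC and 36.8, 53.7 and 50.1 CPM with vehicle (log2 -0.24, SE 0.41).

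The aspartate and glutamate carriers belong to the malate-aspartate shuttle, which moves reducing equivalents of cytosolic NADH to the matrix. Slc25a12 was at 23.7 and 21.7 CPM in NC and 52.6, 22.5 and 30.5 CPM with vehicle (log2 0.63, SE 0.49), and Slc25a13, the liver form, at 13.7 and 3.74 CPM and at 13.5, 6.17 and 3.47 CPM (log2 -0.17, SE 0.97). Both groups overlapped for each gene. Slc25a20, which carries acylcarnitines to the matrix for fatty acid oxidation, was at 35.5 and 22.4 CPM in NC and 17.3, 18.9 and 23.8 CPM with vehicle (log2 -0.54, SE 0.43). Slc25a51 was at 45.2 and 62.9 CPM and at 39.7, 68.9 and 67.9 CPM (log2 0.12, SE 0.39), overlapping groups for this NAD carrier.

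The mitoferrins, Slc25a37 and Slc25a28, bring iron to the matrix, the former at high rate in red cell precursors. Slc25a37 was at 40.1 and 18.7 CPM in NC and 16.4, 20.5 and 12.9 CPM with vehicle (log2 -0.82, SE 0.53). Slc25a28 was at 16.2 and 13.4 CPM and at 7.10, 12.5 and 10.4 CPM (log2 -0.57, SE 0.64). Neither passed the threshold with all libraries. For Slc25a37 the log2 fold change was -1.24 and past the threshold without NC 2, and -0.16 without NC 1. NC 1, the highest Slc25a37 library, also had the highest sum of 6 erythroid markers, 3380 CPM against 489 CPM in NC 2 and 103 to 2170 CPM with vehicle, whose part was not tested. Slc25a39 was at 62.5 and 31.9 CPM in NC and 81.7, 41.2 and 69.1 CPM with vehicle, a log2 fold change of 0.44 (SE 0.43).

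The other 21 tested members all had an unadjusted p above 0.05 in this comparison. They include carriers of glycine (Slc25a38), branched-chain amino acids (Slc25a44), ornithine (Slc25a15), glutamate (Slc25a22), coenzyme A (Slc25a42) and S-adenosylmethionine (Slc25a26). Their log2 fold changes ran from -3.11 (Slc25a43) to 1.65 (Slc25a29), both of them genes with levels at or near 0 in several libraries.

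**Figure D4:**
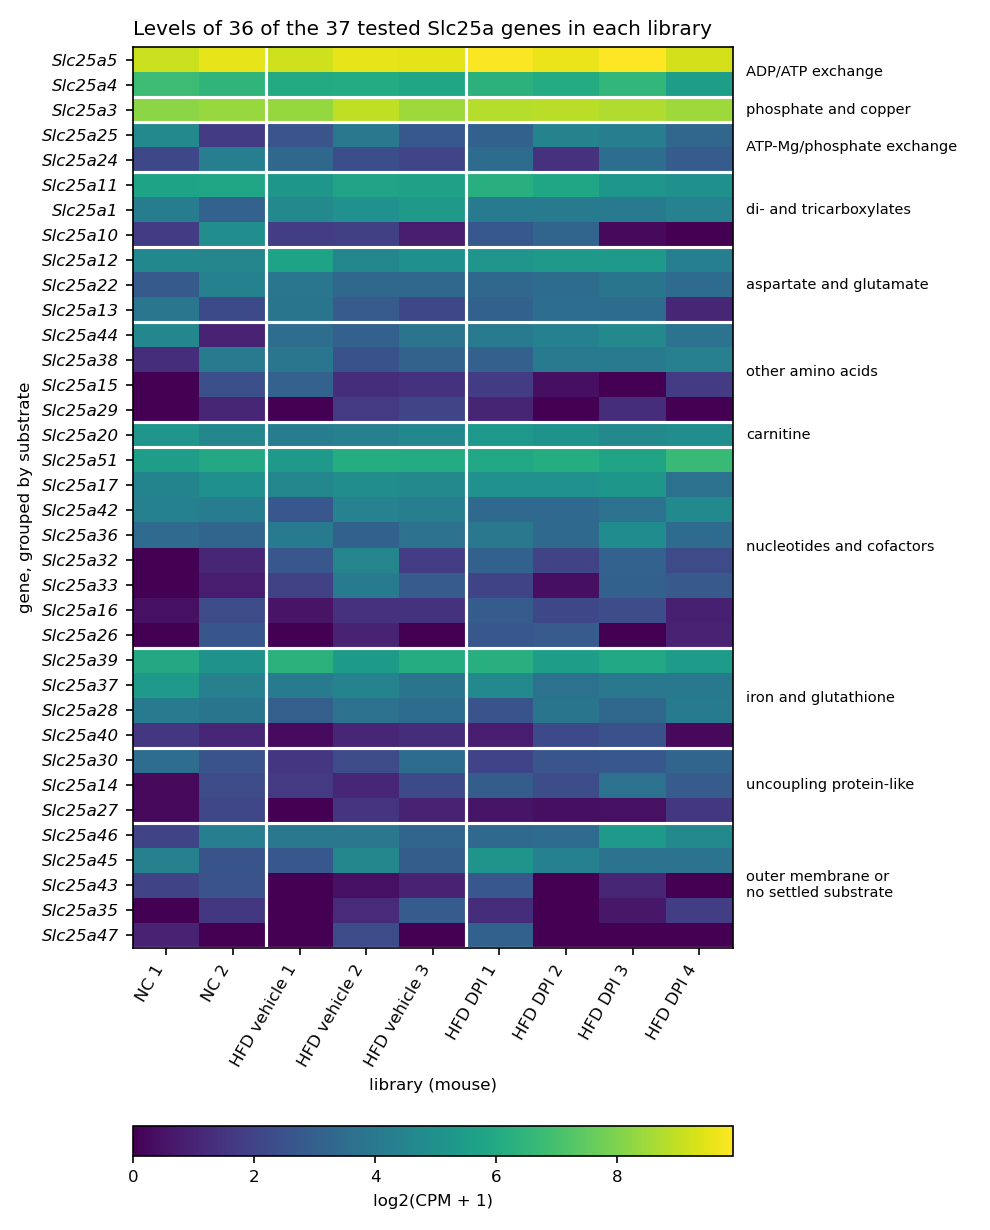
Heat map of log2(CPM + 1) of 36 of the 37 tested members in the 9 libraries, with genes in rows grouped by substrate and libraries in columns grouped by diet and treatment. Slc25a5 and Slc25a3 are the brightest rows in every column, while Slc25a32 and Slc25a33 are dark in the NC columns (at most 1.12 and 0.747 CPM).

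DPI treatment of HFD-fed mice moved no member past the threshold, 0 of 37 (0%), against 2.84% of all genes tested. The carrier closest to it was Slc25a1, whose DPI libraries all lay below the vehicle libraries listed above (17.2 ± 2.13 CPM, n = 4, against 31.8 ± 7.13 CPM, n = 3, SD). Its log2 fold change was -0.88 (SE 0.41; adjusted p = 0.999 by edgeR), short of the size limit of 1. Against NC the DPI libraries of Slc25a1 had a log2 fold change of 0.49 (SE 0.48) with overlapping groups. Since all 3 comparisons share libraries, the values in HFD against NC and in DPI against vehicle both rest on the same 3 vehicle libraries. Without vehicle 1 the Slc25a1 difference reached -1.04 and was past the threshold, as was Slc25a45 without vehicle 2, and without DPI 1 and DPI 2 it was -0.82, with an unadjusted p above 0.05.

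Across the family, 25 of 37 members (67.6%) had a log2 fold change above 0 with DPI, against 53.1% of all genes, and the members' median was 0.13 against 0.04. No gene of the whole table (0%) reached an adjusted p under 0.05 with edgeR. An unadjusted p under 0.05 was found for 1 member, Slc25a1 (2.7%), and for 470 genes in all (4.13%), and DESeq2 put 2 genes under an adjusted p of 0.05, neither of them a member. Without DPI 1 and DPI 2 together, the libraries with the highest Kupffer cell marker sums (581 and 742 CPM, against 145 and 149 CPM in the other DPI libraries), 1 member, Slc25a10, passed the threshold, at a log2 fold change of -4.37, when 1.76% of all genes were called. Slc25a10 was then also called lower in DPI against NC (-7.28), both fitted values that rest on 1 count in the DPI libraries left. The Kupffer cell sum was 97.1 to 262 CPM with vehicle. Most of it in DPI 1 and DPI 2 came from C1qa, C1qb and C1qc. These were at 109, 322 and 96.7 CPM in DPI 1 and at 124, 467 and 140 CPM in DPI 2. Clec4f was at 13.4 CPM in DPI 1 and 2.04 CPM in DPI 2, against 9.32, 0 and 0 CPM with vehicle. C1qa (log2 1.14) and C1qc (log2 1.16) were past the threshold upwards against vehicle, with overlapping groups, and C1qb (log2 1.05) was not past it. DPI 1 and DPI 2 also had the lowest neutrophil sums of the DPI libraries (697 and 631 CPM, against 3130 and 5020 CPM in DPI 3 and DPI 4 and 2330 to 3590 CPM with vehicle). Of the neutrophil markers Mmp8 went the other way in DPI 1, at 289 CPM, against 73.4, 194 and 158 CPM in DPI 2, DPI 3 and DPI 4. The B cell sums were lowest in DPI 1 and DPI 2 too (38.2 and 15.6 CPM, against 115 and 397 CPM). Eosinophil markers, 4 genes, summed to 88.7, 96.1, 0.371 and 60.7 CPM with DPI and 0.743 to 3.08 CPM with vehicle, and both that were tested, Prg2 and Epx, passed the threshold upwards, with Epx at 0 in every vehicle library and in DPI 3. The sinusoidal endothelial sum was 123, 72.7, 4.27 and 26.6 CPM with DPI, against 6.44 to 9.99 CPM with vehicle, with Stab2 and Clec4g past the threshold upwards. The part of this differing cell makeup in the comparison was not tested.

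Slc25a20 and Slc25a14 were the members whose DPI libraries all lay above the vehicle libraries, 5.41% of those tested against 3.38% of all genes, and Slc25a1 was the only one below, 2.7% against 2.48%. The DPI values of Slc25a20 were 37.6, 32.3, 24.1 and 28.4 CPM, with a log2 fold change of 0.62 (SE 0.37; adjusted p = 0.999 by edgeR). They overlapped with NC, at a log2 fold change of 0.08. Slc25a14, a brain-rich relative of the uncoupling proteins, was low throughout, at 2.22, 1.09 and 3.72 CPM with vehicle and 6.50, 4.08, 12.2 and 6.12 CPM with DPI (log2 1.63, SE 1.01; adjusted p = 0.999 by edgeR).

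Of the other carriers that were higher in HFD than in NC, none differed past the threshold between DPI and vehicle. The log2 fold changes against vehicle were -0.82 (SE 0.94) for Slc25a32 and -0.95 (SE 1.05) for Slc25a33, with overlapping groups. These errors leave room for differences of either sign. Against NC, 3 members passed the threshold, Slc25a32 and Slc25a33 among them, 8.11% of those tested against 9.29% of all genes, with no adjusted p under 0.05 by edgeR, which 0.00878% of all genes had. The log2 fold changes in DPI against NC were 3.28 (SE 1.36) for Slc25a32 and 3.44 (SE 1.55) for Slc25a33. Slc25a32 was not past the threshold without NC 1 (2.31), DPI 1 (3.10) or DPI 3 (3.08), without DPI 1 and DPI 2 together (3.34) or in a fit of NC and DPI alone (3.29). Slc25a33 was not without NC 1 (2.48), vehicle 2 (3.44), vehicle 3 (3.48), DPI 3 (3.03) or DPI 4 (3.23). It was not past it either with library totals alone (3.31), in the fit of NC and DPI alone (3.45) or after thinning all libraries to the smallest depth (3.19). Without NC 2, 7 of the 38 members then tested were called, when 21.3% of all genes were.

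The abundant carriers did not pass the threshold with DPI. Slc25a5 measured 920, 790, 966 and 622 CPM with DPI (log2 0.27, SE 0.23), and Slc25a3 451, 477, 423 and 354 CPM (log2 0.13, SE 0.24). Slc25a4 measured 82.9, 68.3, 94.4 and 46.6 CPM (log2 0.20, SE 0.29). For each of these the DPI and vehicle groups overlapped. Slc25a51 was at 61.1, 70, 54.5 and 105 CPM (log2 0.31, SE 0.33), Slc25a39 at 75.2, 46.2, 61.4 and 43.5 CPM (log2 -0.17, SE 0.35) and Slc25a11 at 74.4, 58.1, 36.2 and 30.8 CPM (log2 0.09, SE 0.35).

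Slc25a12 was at 34.6, 40.1, 39.7 and 18.3 CPM with DPI (log2 -0.09, SE 0.40), and Slc25a13 at 7.42, 10.9, 10.4 and 1.12 CPM (log2 -0.07, SE 0.82). The mitoferrin Slc25a37 was at 25.8, 11.9, 14.5 and 15.3 CPM (log2 0.03, SE 0.45), and Slc25a28 at 4.90, 13.6, 9.09 and 16.5 CPM (log2 0.13, SE 0.55). None of these 4 groups separated from vehicle. Slc25a47, a carrier known for its restriction to hepatocytes, had 121 counts in DPI 1, 22 in vehicle 2, 5 in NC 1 and 0 in the other libraries. DPI 1 was the deepest library, and its hepatocyte sum was 41.3 CPM.

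**Figure D5:**
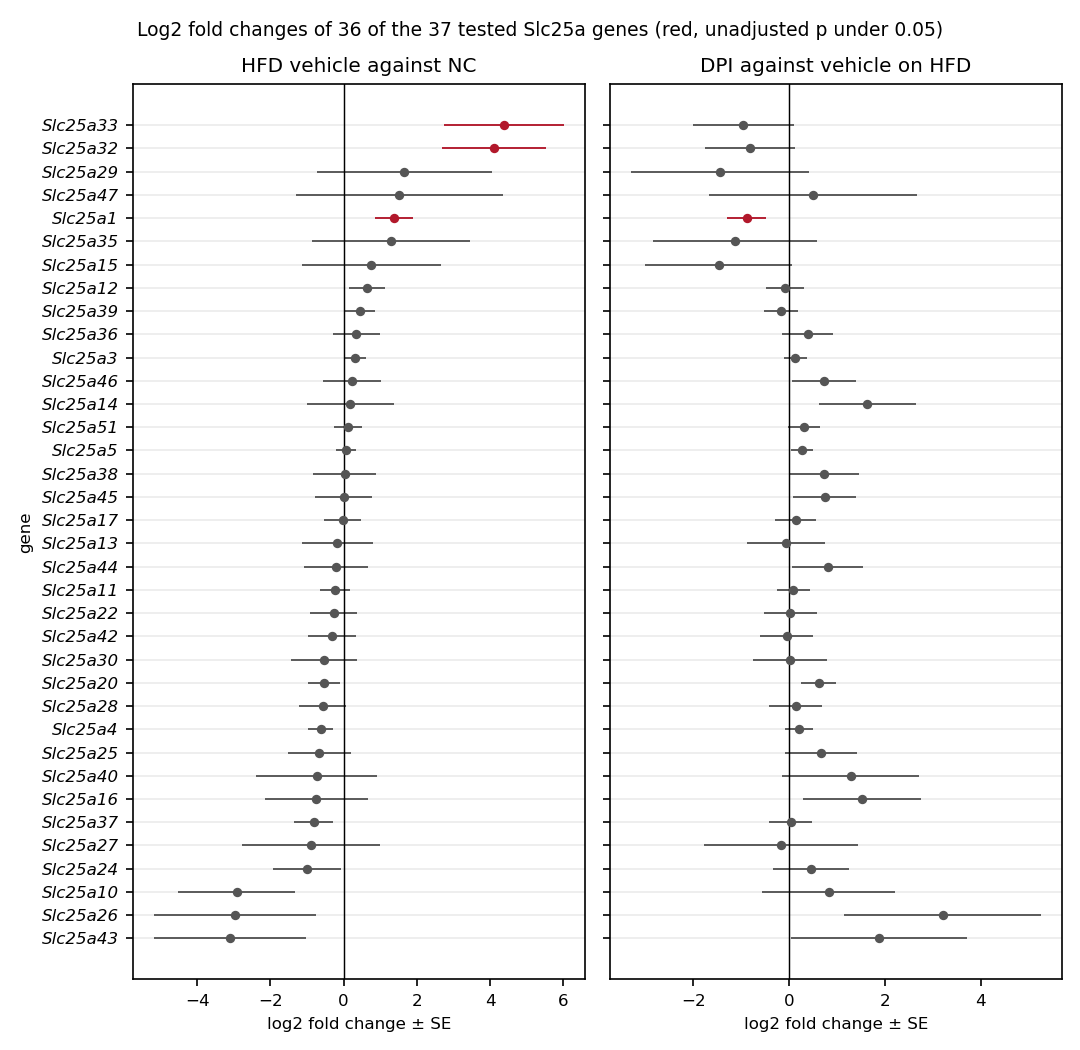
Log2 fold change with its SE for 36 of the 37 tested members in HFD against NC (left panel) and DPI against vehicle (right panel), with the same gene order and separate axis ranges; red points have an unadjusted p below 0.05 in edgeR's test. Slc25a32 and Slc25a33 lie at 4.10 and 4.39 on the left, and on the right Slc25a1 alone (-0.88) is red.

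Of the relatives under other symbols, Ucp2 had the smallest adjusted p of any carrier gene examined in the diet comparison. Ucp2 is the uncoupling protein of immune cells, which is known for exporting malate, aspartate and related metabolites from the matrix, and one of its exons overlaps Dnajb13 on the opposite strand. Its level was 928 and 964 CPM in NC, 3170, 2440 and 3680 CPM with vehicle and 1640, 1580, 2300 and 2210 CPM with DPI. The 3 groups did not overlap at any point, with DPI between NC and vehicle. Ucp2 rose 3.27-fold in HFD against NC (log2 1.71, SE 0.28; adjusted p = 0.05 by edgeR, not under the limit of 0.05). Over the 18 alternatives its adjusted p ran from 8.86e-06 (DESeq2) to 0.184 (replicate block), under 0.05 in 5 of them. With DPI against vehicle its log2 fold change was -0.68 (SE 0.22; adjusted p = 0.999 by edgeR), under the size limit, and it was -0.46 without DPI 1 and DPI 2. In DPI against NC it was past the threshold (log2 1.03; adjusted p = 0.201 by edgeR), but not with RLE scaling (0.99), library totals alone (0.82), DESeq2 (0.99), without DPI 3 (0.93) or without DPI 4 (0.96).

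Mtch1, an outer membrane relative that helps insert proteins there, was past the threshold downwards in HFD against NC (log2 -1.63, SE 0.67; adjusted p = 0.341 by edgeR). Its level was 54.6 and 15.7 CPM in NC, 20.4, 6.71 and 6.94 CPM with vehicle and 10.3, 12.9, 6.86 and 9.08 CPM with DPI. The NC and vehicle libraries overlapped, and the call was lost without NC 1 (-0.46), without vehicle 2 (-1.36), without vehicle 3 (-1.33) and in a fit of NC and vehicle alone (-1.63). The DPI libraries all lay below both NC libraries, and Mtch1 was past the threshold downwards in DPI against NC too (log2 -1.85), a call lost without NC 1 (-0.68). Mtch2 was not past it, at 48.4 and 67.4 CPM in NC, 40.9 to 59.3 CPM with vehicle and 53.8 to 97.5 CPM with DPI. Ucp1 was at 0 in every library and Ucp3 in 7 of 9.

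Among 21 other mitochondrial transporters, 3 were past the threshold in HFD against NC, all lower, 14.3% against 11.7% of all genes. Abcb10, an exporter of the inner membrane, was among them (log2 -2.83). None had an adjusted p under 0.05 by edgeR. With DPI against vehicle 1 of the 21 passed the threshold (4.76% against 2.84% of all genes), at an adjusted p of 0.999 by edgeR. Mpc2, a subunit of the mitochondrial pyruvate carrier, did not pass it, at a log2 fold change of 0.55 with all DPI libraries above the vehicle libraries.

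The import machinery that inserts the carriers into the inner membrane, 10 genes of the TOM and TIM22 routes, had 0 past the threshold in HFD against NC and 0 in DPI against vehicle, where 11.7% and 2.84% of all genes were. The smallest adjusted p in the diet comparison belonged to 1810026J23Rik (now Timm29), at a log2 fold change of -1.10 (SE 0.72; adjusted p = 0.538 by edgeR). Of 7 tested regulators of mitochondrial biogenesis, 2 passed the threshold in HFD against NC (28.6%) and 1 in DPI against vehicle (14.3%), against the same shares of all genes. Myc was higher in HFD than in NC (log2 1.52, SE 0.67; adjusted p = 0.364 by edgeR) and Esrra was lower (log2 -1.53, SE 0.70; adjusted p = 0.379 by edgeR). Esrra was at 28.6 and 7.66 CPM in NC and 6.66, 5.44 and 6.69 CPM with vehicle. Myc was at 8.56 and 17.7 CPM in NC, 25.7, 60.2 and 26.8 CPM with vehicle and 19.6, 13.2, 52.7 and 49.7 CPM with DPI, so the DPI libraries overlapped both other groups. Ppargc1b, a coactivator of mitochondrial genes, was lower with DPI than with vehicle (log2 -2.00, SE 0.86; adjusted p = 0.999 by edgeR). It was at 19.1, 5.8 and 8.67 CPM with vehicle and 1.04, 6.45, 3.34 and 0.816 CPM with DPI, overlapping groups. Its relative Ppargc1a did not exceed 0.34 CPM in any library and was not tested.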

How the data were processed

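Libraries were grouped by their labels, and same-numbered mice of different groups were treated as unpaired. The authors deposited raw counts per gene on mm10, made with bowtie2 and RSEM per the methods, whereas the submitters' processing notes name TopHat2 and edgeR. The test was edgeR 4.0.16 under R 4.3.3 (filterByExpr, TMM, glmQLFit over 3 groups and 9 libraries, BCV 0.65), and p was adjusted over the 11393 genes tested. The SE is the log2 fold change over the root of F. The fit was also run on simulated counts, and the outcome is not given here. Members, roles and lists were chosen with earlier results of these data known. Named with full values were members past the threshold, the 8 highest by CPM and a set of metabolic carriers. In each related list the 3 smallest p of a comparison guided the naming, not always with full values. Slc25a14, Slc25a25, Slc25a36, Slc25a43 and Slc25a47 were named after their values were seen. Slc25a52 was not analysed here, and some named-gene results are not reported here. The treatment followed the methods, not the sample labels. The p-values set group differences against the variation between libraries. Alternatives were RLE or library-size scaling, other filters, DESeq2 1.42.0, a fit of 2 groups, a replicate block, no Rn45s, thinning, and libraries left out. Annotation came from GENCODE M21 and figures from matplotlib 3.10.9 in Python 3.11.15.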

Additional observations from a re-analysis of the deposited data

How the results depend on the processing

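A minimum of 10 counts in every library left Slc25a32 and Slc25a33 untested, with 1 of 19 members called in HFD against NC (10.7% of all genes) and 0 in DPI against NC (7.8%). DESeq2 gave 2 members with an adjusted p under 0.05 in HFD against NC (2.74% of all genes) and 1 in DPI against NC (1.92%), where a fit of 2 groups called 1 (8.09% of all genes at the threshold). Low counts and 2 NC libraries limit what can be seen, and with 1 NC library left it is assumed to vary like the other groups.

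Library-size scaling moved the median of all genes from 0.03 to -0.26 in HFD against NC and from 0.04 to 0.12 in DPI against vehicle. The members' median in HFD against NC became -0.31, Slc25a5 -0.22 and Slc25a51 -0.18, Slc25a20 in DPI against NC -0.14, and the NC sum 1735 CPM. With Rn45s left out the sum was 2276 CPM on NC, 2480 CPM under vehicle and 2795 CPM under DPI.

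Same-numbered libraries did not deviate together over all genes (correlations of -0.022 to 0.084). This cannot exclude a weak pairing, and the deviations of 2 NC libraries mirror each other. With the number as a replicate block, which drops DPI 4, 3 members were called in HFD against NC, Slc25a1 not among them (1.35), 0 in DPI against vehicle and 2 in DPI against NC, Slc25a33 not among them (3.58), when 8%, 3.55% and 7.15% of all genes were called. Of the relatives, Ucp2 was not past the threshold with this block in DPI against NC (0.78), and Mtch1 was not past the threshold with this block in HFD against NC (-1.33) or DPI against NC (-1.29). Signs turned in HFD against NC for Slc25a13 (0.059) and Mtch2 (0.061), in DPI against vehicle for Slc25a12 (0.18), Slc25a37 (-0.019), Slc25a28 (-0.18), Slc25a13 (0.59), Slc25a32 (0.11) and Mtch1 (0.040), and in DPI against NC for Slc25a11 (0.11) and Slc25a13 (0.65). Without DPI 1 and DPI 2, an alternative chosen after seeing the data, 1 member was called in DPI against vehicle, and signs turned for Slc25a3 (-0.0080), Slc25a11 (-0.49), Slc25a37 (-0.16) and Slc25a10 (-4.37), and in DPI against NC for Slc25a20 (-0.14) and Mtch2 (-0.090). The cause was not tested for any of these.

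With each library left out in turn, members called ran from 2 to 7 in HFD against NC, 0 to 1 in DPI against vehicle and 1 to 7 in DPI against NC (9.04% to 21.4%, 1.65% to 4.64% and 7.4% to 21.3% of all genes), those with an adjusted p under 0.05 from 0 to 1 in HFD against NC, and the members' median from -0.18 to 0.43 in HFD against NC and from 0.068 to 0.60 in DPI against NC. Outside the members named with full values, Slc25a44 went from a log2 fold change of -0.21 to 3.44 without NC 1 in HFD against NC. In DPI against NC without NC 1, Slc25a44 was at 4.26 and Slc25a25 at 2.48. For the members named with full values, Ucp2, Mtch1 and Mtch2, log2 fold changes that turned in HFD against NC ran from -0.10 to 0.31 for Slc25a5, -0.086 to 0.41 for Slc25a51, -0.79 to 1.05 for Slc25a13 and -0.35 to 0.14 for Mtch2. In DPI against vehicle they ran from -0.41 to 0.036 for Slc25a39, -0.18 to 0.26 for Slc25a11, -0.33 to 0.32 for Slc25a12, -0.26 to 0.21 for Slc25a37, -0.14 to 0.38 for Slc25a28, -0.42 to 0.60 for Slc25a13, -1.29 to 0.47 for Slc25a32 and -0.49 to 0.51 for Mtch1. In DPI against NC they ran from -0.11 to 0.84 for Slc25a39, -0.41 to 0.027 for Slc25a11, -0.18 to 0.46 for Slc25a20, -0.86 to 0.99 for Slc25a13 and -2.97 to 0.61 for Slc25a10.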
